A study of Saccharomyces cerevisiae with 11 samples.

Results

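The K11 strain of budding yeast carried a histone H2A with 1 lysine added at position 11 of its N-terminal tail, and its transcripts were compared with those of WT on 5 arrays, 2 of K11 and 3 of WT, out of 11 arrays in the whole series. The arrays were chosen by their titles, K11 replicates 1 and 2 and WT replicates 1, 2 and 3. In both strains (AOY013 for K11 and AOY001 for WT) the chromosomal H2A genes had been removed (hta1-1 hta2-1) in a Mata, ura3-52, his3 background. All H2A came from a centromeric HIS3 plasmid (CEN6, ARSH4), which carried HTA1 in WT (pFL142) and hta1-K11 in K11 (pK11). Untreated cultures in YPD were diluted to an OD600 of 0.2 and harvested in log phase at 0.8, and poly(A) RNA was hybridized to Affymetrix Yeast Genome 2.0 arrays. The arrays of a strain are called biological replicates in the deposited description, and each strain is 1 isolate. The lysine strain is the charge control for R11, in which an arginine stands at the same place.

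Histone H2A pairs with H2B, and these pairs join H3 and H4 in the nucleosome, the unit in which DNA is wrapped. The N-terminal tail of H2A leaves the nucleosome near the DNA, and its lysines and arginines are positively charged. Acetylation of tail lysines removes that charge, and chromatin factors such as the SWR1, INO80 and SAGA complexes act on nucleosomes that contain H2A. The comparison of K11 with WT addresses whether an added tail lysine changed transcript levels.

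The forward mutagenesis primers are shown because they define the only difference between the H2A of the K11 and R11 plasmids. The inserted codon is in capitals and the rest of the primer in lower case, 5′ to 3′.
K11_f: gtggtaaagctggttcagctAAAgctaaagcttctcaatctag
R11_f: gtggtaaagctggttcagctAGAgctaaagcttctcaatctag
Both primers had 43 bases, and the inserted codon took bases 21 to 23, between GCT codons on both sides, which encode alanine. AAA encodes lysine and AGA arginine. The primers differed at 1 base, A22G, counted from 1 at the 5′ end and with the K11 base first.

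The values were MAS5 signals, a linear brightness per probe set, which is the group of probes for 1 transcript. For 5415 S. cerevisiae genes of 5449 with a probe set, the mean log2 signal over the arrays lay above a background of 5.10 signal units, and these genes were tested. This background was the 95th percentile of 1747 probe sets on the same arrays that are annotated to Schizosaccharomyces pombe. In 5388 of them all 5 arrays of K11 and WT lay above it. WT replicate 3 stood apart from the other 4 arrays in the hybridization controls. Its mean log2 signal of 6 spike-in probe sets was 10.71, against 10.85 to 11.01 on the other 4. The ratio of its ACT1 3′ to 5′ control probe sets was 1.11, against 1.26 to 1.33. Many results are therefore also given without this array, either directly or as differences within replicate numbers 1 and 2. The part of these controls in any result was not tested.

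Arrays of K11 and WT with the same replicate number differed less than arrays of the same strain. Over the 5415 genes, the log2 difference between K11 replicate 1 and WT replicate 1 had an SD of 0.17, and that between K11 replicate 2 and WT replicate 2 had an SD of 0.19. The 2 K11 arrays differed from each other with an SD of 0.30, and the 3 pairs of WT arrays with 0.31 to 0.38. K11 and WT arrays with different replicate numbers had SDs of 0.30 to 0.34. Each K11 array was thus nearer to the WT array of its own number than to the other K11 array. Among all 10 other arrays of the series, the nearest to K11 replicate 1 was WT replicate 1 and the next was R11 replicate 1 (SD 0.18). The nearest to K11 replicate 2 was R11 replicate 2 (SD 0.18), followed by WT replicate 2. The labels do not say what arrays of the same number shared.

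**Figure D1:**
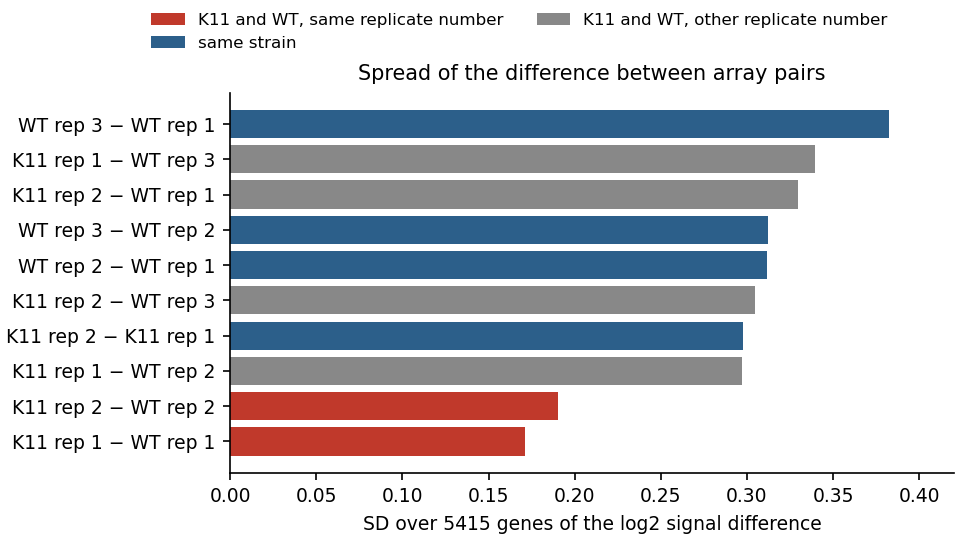
SD over 5415 genes of the log2 signal difference (horizontal axis) for the 10 pairs among the 5 arrays (vertical axis), coloured by the kind of pair. The pairs of K11 and WT with the same replicate number have 0.17 and 0.19, and all the other pairs have 0.30 or more.

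No gene passed the test between K11 and WT. With limma, a linear model fitted across all genes with shrunken variances and Benjamini-Hochberg adjustment, 0 of 5415 genes (0%) had an adjusted p under 0.05. The smallest adjusted p was 1.0, and 23 genes (0.425%) had an unadjusted p under 0.05. Uniformly spread p-values would give 271 such genes, so that the p-values of this fit were larger than uniform ones. The fold changes were small, with a median log2 fold change of -0.01 and an SD of 0.14. In all, 97.0% of the genes lay within 1.25-fold and 99.6% within 1.5-fold of WT.

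The precision of the fit sets what this count can show. The median standard error was 0.16 on the log2 scale, and for 96.9% of the genes the 95% interval of the fold change lay within 2-fold in both directions. For genes with a mean signal of at least 50 this was 98.7%. For 78.4% of all genes the interval lay within 1.5-fold. Smaller changes were thus not detectable for many genes in this fit, with 2 arrays against 3. This fit had no term for the replicate number. With such a term, over the WT, R11 and K11 arrays of numbers 1 and 2, the median standard error was 0.07.

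A 2-fold difference was reached by 4 genes (0.0739% of those tested), 1 higher and 3 lower in K11, and all 4 had mean signals under 50. HXT15, a hexose transporter gene read by a probe set with the suffix for probes shared between transcripts, had signals of 4.71, 4.77 and 7.39 in WT and 8.50 and 17.2 in K11. YPR159C-A had 7.69, 9.06 and 7.96 in WT and 3.40 and 4.36 in K11. Neither gene overlapped between the strains. ECM23, which encodes a GATA-type zinc finger protein, had 10.1, 5.59 and 11.1 in WT and 9.04 and 1.65 in K11. PFS1, a gene of spore formation, had 7.56, 8.47 and 11.7 in WT and 9.41 and 1.11 in K11. Both overlapped, and their difference came from K11 replicate 2. With single arrays left out, the count past 2-fold ranged from 7 without WT replicate 3 to 15 without K11 replicate 1 or without WT replicate 1, with 14 without K11 replicate 2 and 8 without WT replicate 2. It was 0 among genes with a mean signal of at least 50.

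At 1.5-fold there were 23 genes (0.425%), 4 higher (0.0739%) and 19 lower (0.351%) in K11, of which 20 had a mean signal under 50. The split was 8 higher and 14 lower after quantile normalization, and 14 and 12 without WT replicate 3. In 475 genes (8.77%) the arrays of K11 and WT did not overlap, with K11 higher at 249 (4.6%) and lower at 226 (4.17%). Both conditions, with all 5 arrays above background, were met by 7 genes, 2 higher and 5 lower.

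**Figure D2:**
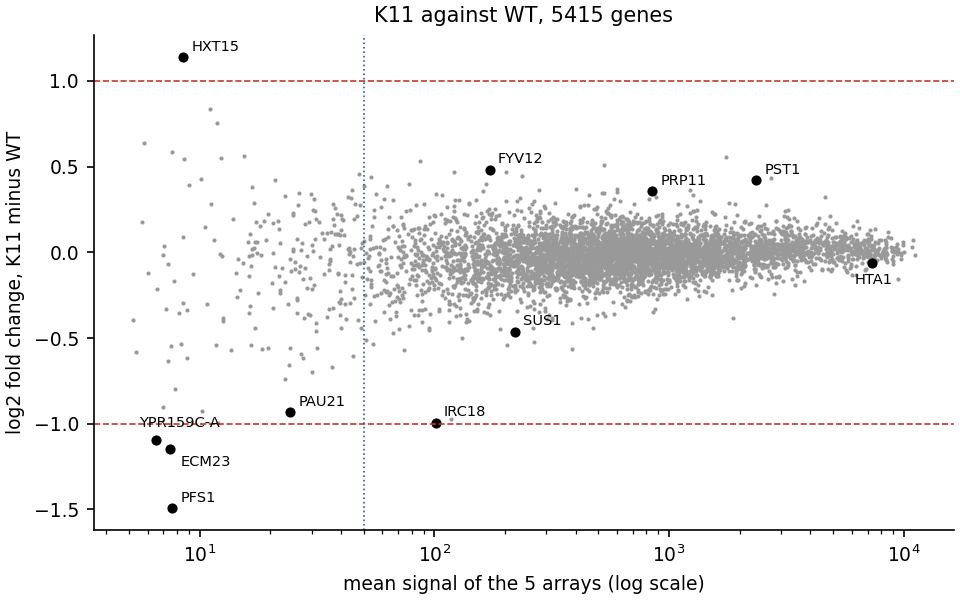
Log2 fold change of K11 against WT (vertical axis) against the mean signal of the 5 arrays on a log scale (horizontal axis) for 5415 genes, with 2-fold as dashed lines and a signal of 50 as a dotted line. The 4 genes past 2-fold lie at the left edge, and IRC18 is the labelled gene nearest to 2-fold to the right of the dotted line.

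Among genes whose arrays did not overlap and all lay above background, IRC18 had the lowest log2 fold change. IRC18 (also OSW6) is named for the increased number of recombination centres in its deletion mutant. Its signals were 136, 137 and 105 in WT and 78.2 and 50.5 in K11, a mean of 126 ± 18.0 (SD, n = 3) against 64.3 ± 19.6 (SD, n = 2). All WT arrays thus lay above both K11 arrays. The log2 fold change was -0.99 with a standard error of 0.30, and its unadjusted p in the limma fit was the smallest of all genes, at 0.0071, with an adjusted p of 1.0. It was -0.68 without K11 replicate 2 and -1.31 without K11 replicate 1. LOH1, its neighbour in the RefSeq annotation, was chosen for comparison after these values were seen and had a log2 fold change of -0.06 with a standard error of 0.28.

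SUS1 encodes a small subunit shared by the deubiquitinating module of SAGA, which removes ubiquitin from H2B, and by the TREX-2 complex, which exports mRNA. It had 255, 231 and 254 in WT and 181 and 177 in K11. The K11 arrays lay below every WT array, with a log2 fold change of -0.46 (standard error 0.29, limma adjusted p 1.0). BLI1, a subunit of the endosomal BLOC-1 complex, had 50.1, 65.8 and 71.7 in WT and 44.9 and 40.5 in K11. HXT10, another hexose transporter gene, had 21.1, 29.8 and 33.0 in WT and 19.0 and 18.3 in K11. These genes had log2 fold changes of -0.54 and -0.56. The other members of the 10 lowest without overlap and with all 5 arrays above background were PAU21, SPO74, YLR012C, YOR381W-A, YOR011W-A and YIL014C-A, with log2 fold changes of -0.93 to -0.45. PAU21, of the seripauperin family, is read by a shared probe set (23.2, 28.3 and 37.6 in WT, 11.3 and 20.7 in K11), and SPO74 encodes a protein of the meiotic spindle pole body.

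On the higher side, FYV12 and PRP11 lay above WT on both K11 arrays. FYV12 is required for survival of K1 killer toxin, and it had 152, 139 and 155 in WT and 204 and 210 in K11, with a log2 fold change of 0.48 (standard error 0.16). Its K11 arrays differed by less than the gap to WT. PRP11, a subunit of the SF3a splicing complex, had 786, 816 and 685 in WT and 902 and 1053 in K11, with a log2 fold change of 0.36 (standard error 0.15). HXT5, a glucose transporter gene expressed in slowly growing cells, had 42.9, 43.8 and 53.5 in WT and 54.3 and 73.1 in K11. Its lowest K11 array and its highest WT array nearly touched.

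EMI1, which is needed for induction of the meiotic regulator IME1, had 121, 152 and 170 in WT and 174 and 213 in K11. AQY1, a water channel gene, had 42.1, 46.9 and 44.9 in WT and 53.4 and 63.9 in K11. Both had log2 fold changes near 0.4 (0.40 for EMI1 and 0.39 for AQY1), and neither passed the test. The other members of the 10 highest by the same rule were YBR090C, YML054C-A, UTR5, YBR200W-A and VBA3, with log2 fold changes of 0.39 to 0.84. YBR090C (7.84, 5.90 and 12.0 in WT, 14.9 and 14.4 in K11) and YML054C-A (a mean of 9.29 ± 0.66 (SD, n = 3) in WT, 15.6 and 15.6 in K11) had the largest values, at signals near the background.

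**Figure D3:**
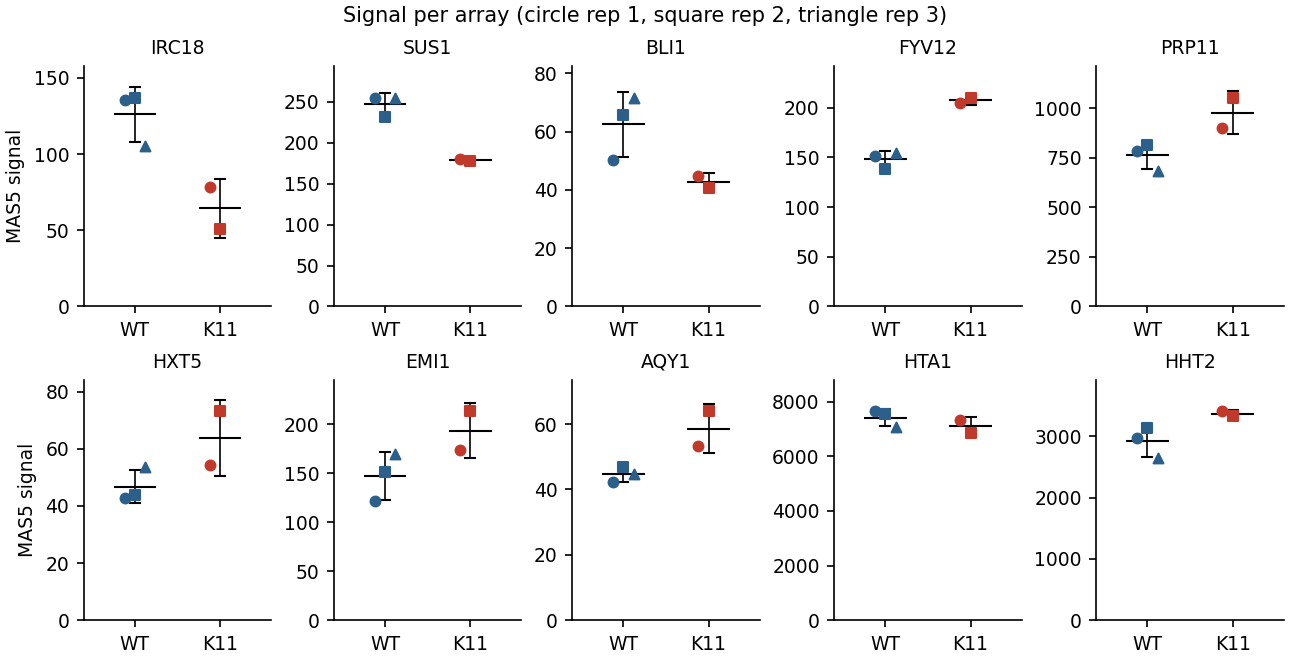
MAS5 signal (vertical axes, from 0) of 10 genes on each WT (blue) and K11 (red) array, with the replicate number as the symbol, the mean as a line and the SD as a bar. IRC18, SUS1 and BLI1 lie lower on both K11 arrays, FYV12, PRP11, HXT5, EMI1, AQY1 and HHT2 lie higher on both, and HTA1 overlaps.

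Since the arrays of 1 number were close, the difference was also taken within each number, as K11 replicate 1 minus WT replicate 1 and K11 replicate 2 minus WT replicate 2. Each is 1 array against 1 array and has no test. Past 1.5-fold there were 56 genes within number 1 and 73 within number 2. Only 9 genes were past it in the same direction in both, 6 higher and 3 lower in K11, and 4 were past it in opposite directions. At 1.25-fold, 36 genes were higher in both, 14 lower in both and 26 opposite. Across genes, which are not independent replicates, the differences had a Pearson correlation of 0.17 and the same sign for 61.1% of the genes. For genes with a mean signal of at least 50 the correlation was 0.26.

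The 6 genes higher by 1.5-fold in both numbers were CTF19, HXT15, LSO1, VID30, YBR090C and YML054C-A, and the 3 lower ones were IRC18, YAR064W and YPR159C-A. Among them, only IRC18 and VID30 had mean signals over 50. VID30 encodes a subunit of the GID ubiquitin ligase, which removes gluconeogenic enzymes when glucose is present. It had 81.0 in WT and 141 in K11 for number 1, 88.3 and 143 for number 2, and 151 in WT replicate 3. K11 thus lay above WT in both numbers, but below WT replicate 3, and the log2 fold change over all arrays was 0.47 with a standard error of 0.31. LSO1, a small gene induced by iron deprivation, had 8.25 and 12.7 in number 1, 6.09 and 21.7 in number 2 and 28.2 in WT replicate 3. CTF19, which encodes a kinetochore protein, had 52.4 in WT replicate 3, and K11 minus WT was 1.32 within number 1 and 0.63 within number 2. For these 3 genes WT replicate 3 was the highest of the 5 arrays. Among genes with all 5 arrays above background, which leaves out YAR064W and YPR159C-A, the lowest in both numbers by the smaller difference were IRC18 (-0.80 and -1.44), YOR011W-A, PAU21, YBL008W-A and YOR381W-A, and only IRC18 had a mean signal over 50.

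**Figure D4:**
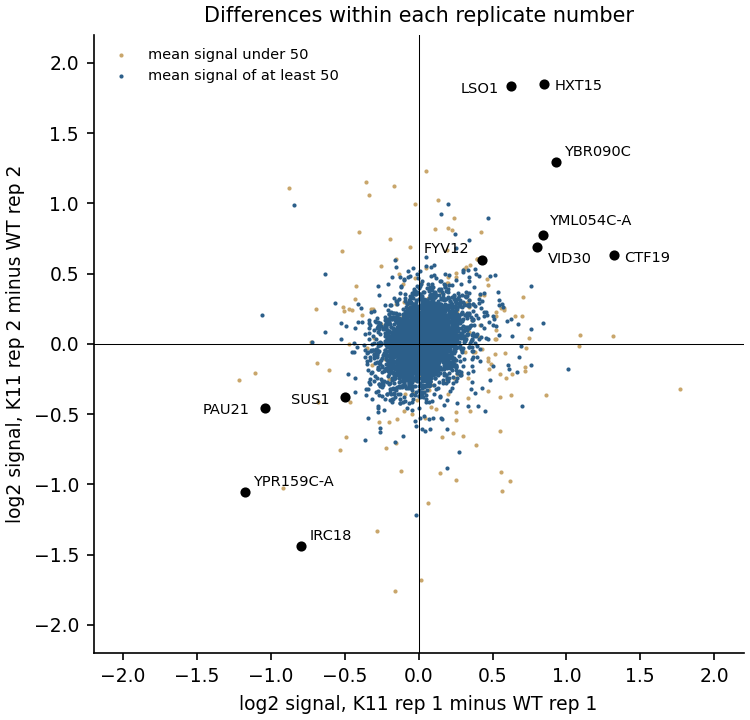
Log2 difference of K11 replicate 1 minus WT replicate 1 (horizontal axis) against K11 replicate 2 minus WT replicate 2 (vertical axis) for each gene, coloured by mean signal. Most genes form a cloud around 0, and the labelled genes stand out in the same direction on both axes, with 2 genes beyond the axis limits of 2.2.

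Core histone transcripts differed little. HTA1, the H2A gene carried by the plasmid, had 7643, 7548 and 7053 in WT and 7335 and 6858 in K11, which overlapped. Its log2 fold change was -0.06 with a standard error of 0.07 and a 95% interval from -0.22 to 0.09. Where its probes lie in the gene is not given in the sources used here, so that its level does not check the insertion. The H2B genes HTB1 and HTB2 gave 0.01 and -0.05, with overlapping arrays. HHT2, an H3 gene, had 2969, 3141 and 2642 in WT and 3405 and 3327 in K11. It was the only core histone gene of 7 tested whose arrays did not overlap, against 8.77% of all genes. Its log2 fold change was 0.21 (standard error 0.17), while HHT1, the other H3 gene, had -0.03. HHF1, an H4 gene, is read by a probe set with the shared suffix and had -0.04. HTA2 is deleted in both strains by genotype, yet its probe set with the shared suffix, which was the one tested, had signals of 5698 to 6391 on the 5 arrays and a log2 fold change of -0.07. Its probe set without the suffix had 302 to 382 in WT and 297 and 388 in K11. Neither level is at the background, and whether these signals come from HTA1 transcripts was not tested, so that the HTA2 value is not taken as a level of HTA2.

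The variant and linker histones gave values near 0 as well. The log2 fold change was 0.10 for HTZ1 (H2A.Z), 0.01 for CSE4, the centromeric H3, and 0.02 for HHO1, the linker histone, and all 3 overlapped between strains. Of 7 core histone genes, HTA2 included, 2 were higher and 5 lower in K11, with a median of -0.04. Over all genes 44.5% were higher and the median was -0.01. Within numbers 1 and 2 the core histone medians were -0.06 and -0.11, with 1 gene higher in both and 5 lower in both. Over all genes 33.6% were higher in both numbers and 27.5% lower in both.

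Genes for factors that act on histones showed no shift beyond a few hundredths of a log2 unit. The counts of higher and lower genes in this and the other lists stand beside 44.5% higher in K11 over all genes. Of 21 histone gene regulators and chaperones, 5 were higher and 16 lower, with a median of -0.04. This order rested on WT replicate 3, since the median was 0.03 within number 1 and -0.01 within number 2. SPT16 and POB3, the subunits of the FACT chaperone, had the largest values in that direction with ASF1. SPT16 had 508, 730 and 963 in WT and 558 and 682 in K11, and overlapped, while ASF1, an H3-H4 chaperone, had 446, 470 and 477 against 431 and 391, and did not.

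Of 22 subunits of the H2A.Z exchange complex SWR1 and of INO80, 9 were higher and 13 lower, with a median of -0.02. ARP6, a SWR1 subunit, had 487, 508 and 485 in WT and 424 and 455 in K11, without overlap. Of 31 genes of the SWI/SNF, RSC, ISWI and CHD1 remodelers, 14 were higher and 17 lower, also with a median of -0.02. Of 44 histone acetylation and deacetylation genes 26 were higher and 18 lower, with a median of 0.02. In 5 of these 44 K11 lay above WT without overlap and in 0 below, against 4.6% and 4.17% of all genes. One of the 5 was UME6, a repressor of meiotic genes that recruits the Rpd3 deacetylase (693, 569 and 626 in WT, 696 and 710 in K11). Of 25 histone methylation and ubiquitylation genes 10 were higher and 15 lower (median -0.03), and SUS1 was their lowest member. Within numbers 1 and 2 the SWR1 and INO80 subunits had medians of 0.02 and 0.01, the opposite sign. The remodelers had 0.04 and -0.02, the acetylation and deacetylation genes 0.03 and 0.02, and the methylation and ubiquitylation genes 0.03 and -0.01.

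Silencing, condensation and nuclear envelope genes gave the same picture. Of 22 silencing and telomere binding factors 8 were higher and 14 lower, with a median of -0.02. EST1, a telomerase subunit, had 132, 212 and 210 in WT and 127 and 165 in K11, which overlapped. Of 19 condensin, cohesin and topoisomerase genes 9 were higher and 10 lower (median -0.02), and ECO1, the cohesin acetyltransferase gene, had 126, 147 and 153 in WT and 118 and 120 in K11, without overlap. Of 33 nuclear pore genes 22 were higher and 11 lower, with a median of 0.02. The arrays overlapped for every member, while they did not overlap in 8.77% of all genes. Within numbers 1 and 2 the silencing and telomere binding factors had medians of 0.03 and 0.01, the opposite sign. Condensin, cohesin and topoisomerase genes had 0.06 and 0.02, also the opposite sign, and nuclear pore genes had 0.04 in both.

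Nuclear transport factors were higher in 10 and lower in 15 of 25 genes (median -0.01). Nuclear membrane and phospholipid synthesis genes were higher in 10 and lower in 20 of 30, with a median of -0.04. Within numbers 1 and 2 the latter had medians of 0.01 and 0.04, the opposite sign. BRR6, an integral nuclear envelope protein gene, had 479, 493 and 587 in WT and 449 and 413 in K11, without overlap.

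Other lists had medians of at most 0.12 in size, over 50 lists with 1370 distinct tested genes. The 6 with the largest medians outside the chromatin, nuclear and mating type lists were the seripauperin family (0.06 over 13 genes, of which 11 are read by shared probe sets), maltose and galactose genes (-0.06 over 14), general stress response genes (0.06 over 60), pyrimidine genes (0.05 over 13), cell wall genes (0.05 over 36) and G2/M genes (0.05 over 23). Without WT replicate 3 several of these changed: within numbers 1 and 2 the medians were 0.12 and 0.15 for the maltose and galactose genes, which turns the sign, 0.01 and -0.03 for the pyrimidine genes, -0.02 and 0.11 for the seripauperin family, and 0.00 and 0.06 for the cell wall genes. PST1, a cell wall mannoprotein gene induced by wall stress, had 2276, 1819 and 2061 in WT and 3317 and 2262 in K11. Its arrays overlapped narrowly, and its log2 fold change of 0.42 (standard error 0.16) was 0.15 without K11 replicate 1.

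Of the 60 general stress response genes, which are induced together when growth slows or stress sets in, 40 were higher and 20 lower in K11. In 9 K11 lay above WT without overlap and in 1 below, against 4.6% and 4.17% of all genes. MSC1 had 415, 405 and 431 in WT and 509 and 498 in K11, without overlap. DDR2, a multistress response gene, had 358, 386 and 503 in WT and 501 and 538 in K11. WT replicate 3 reached the K11 arrays at DDR2 and not at MSC1.

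Within replicate numbers, several growth-related lists stood on 1 side in both numbers. Over all genes, 33.6% were higher in K11 in both numbers and 27.5% lower in both. Of the 60 stress response genes 37 were higher in both and 5 lower in both, with medians of 0.05 within number 1 and 0.18 within number 2. Of 22 tricarboxylic acid and glyoxylate cycle genes, the route that burns acetyl-CoA in respiration, 17 were higher in both and 2 lower in both, with medians of 0.05 and 0.18. Of 23 G2/M genes 14 were higher in both and 1 lower in both.

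Cytosolic ribosomal protein, ribosome biogenesis and G1/S genes were lower in both numbers more often than higher. Of 128 cytosolic ribosomal protein genes 10 were higher in both numbers and 79 lower in both, with medians of -0.04 and -0.03. Of 108 ribosome biogenesis genes 11 were higher and 58 lower in both, with medians of -0.01 and -0.08. Of 66 mitochondrial ribosomal protein genes 21 were higher and 15 lower in both, with medians of -0.01 and 0.04. Of 30 G1/S genes 1 was higher and 17 lower in both, with medians of 0.00 and -0.17. These lists, apart from the stress response and G2/M genes, were chosen after their values were seen.

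Some of these lists also differed between cultures of 1 strain. WT replicate 2 minus WT replicate 1 had a median of 0.34 for the G1/S genes, 0.19 for the G2/M genes and 0.10 for the tricarboxylic acid cycle genes. It was 0.03 for the stress response genes, -0.05 for the ribosome biogenesis genes and 0.00 for the cytosolic ribosomal protein genes. K11 replicate 2 minus K11 replicate 1 had medians of 0.14, 0.23, 0.21, 0.11, -0.13 and 0.01 for these lists in the same order. SPI1, the stress response gene with the highest log2 fold change, had 1858, 586 and 902 in WT and 1995 and 822 in K11. Against the mean of all 3 WT arrays, the K11 median was 0.01 for ribosomal protein genes and 0.00 for tricarboxylic acid cycle genes. The deviation of WT replicate 3 from the WT mean was -0.09 for the ribosomal protein genes, 0.19 for the tricarboxylic acid cycle genes and 0.11 for the stress response genes. The part of these culture differences in the K11 values was not tested.

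**Figure D5:**
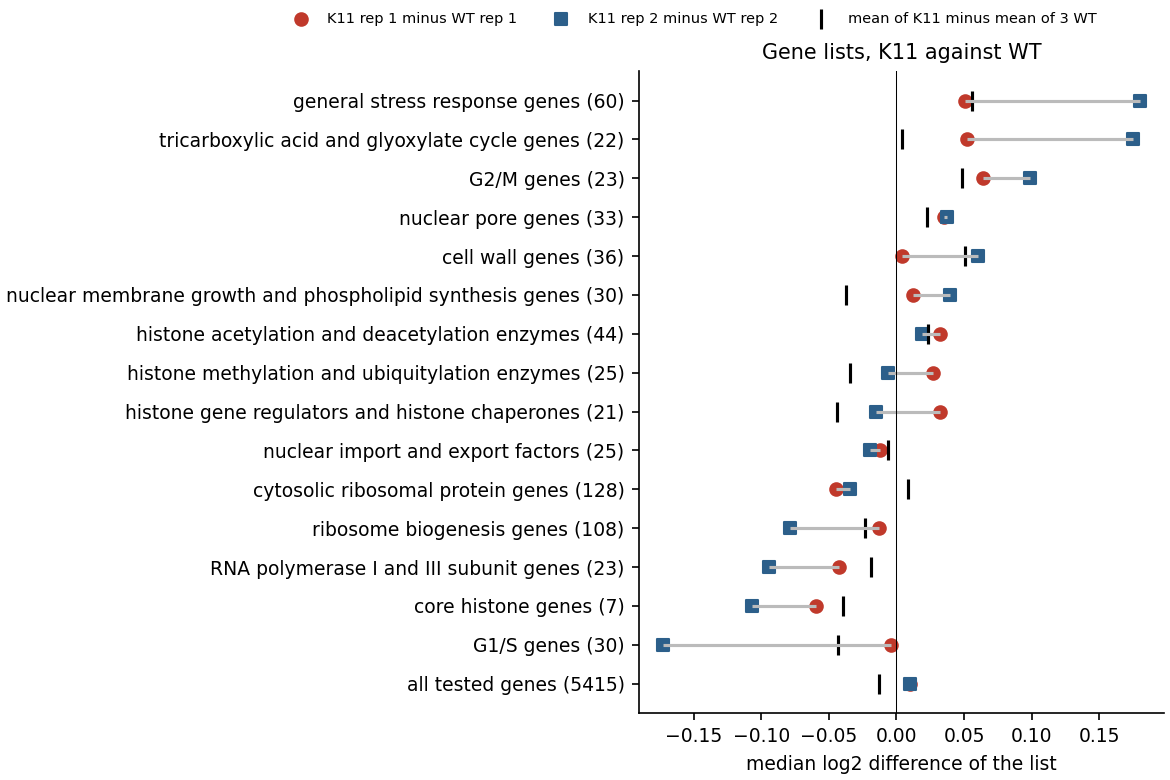
Median log2 difference of each gene list (horizontal axis) within replicate number 1 (red circles), within number 2 (blue squares) and between the means of K11 and of all 3 WT arrays (black bars), with the number of tested genes in parentheses. Stress response and tricarboxylic acid cycle genes have 0.05 within number 1 and 0.18 within number 2, ribosomal protein genes have -0.04 and -0.03, and the 5415 tested genes have 0.01 in both.

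The mating type and marker genes were checked against the strain. The MATa-specific genes STE2, which encodes the alpha-factor receptor, and MFA2, an a-factor gene, had signals of 4183 to 4375 and 4352 to 5364 in WT and of 4436 to 4575 and 4706 to 5051 in K11. All 7 MATa-specific genes were above background, with log2 fold changes of -0.36 (ASG7) to 0.10 (STE6). The alpha-factor genes MF(ALPHA)1 and MF(ALPHA)2 had signals of 44.7 to 106 on the 5 arrays, and the other MATalpha-specific genes STE3, SAG1 and AFB1 had 150 to 940. The strains thus had the a-type markers at similar levels, and the 2 alpha-factor genes were the dimmest of the 5 MATalpha-specific genes in both. STE3 (150 to 207) overlapped in signal with the MATa-specific gene ASG7 (113 to 173). SAG1 (645 to 823) and AFB1 (728 to 940) were as bright as the MATa-specific gene AGA2 (732 to 796). Of the 5 MATalpha-specific genes 2 were higher and 3 lower in K11, with a median of -0.12, the lowest of all lists. In 2 of them, SAG1 included, K11 lay above WT without overlap and in 1 below, against 4.6% and 4.17% of all genes. HIS3, the plasmid marker, had 10390, 9621 and 9443 in WT and 8315 and 9297 in K11, below WT without overlap, with a log2 fold change of -0.16 (standard error 0.11). URA3, mutated in both strains, had 123, 111 and 122 in WT and 107 and 91.0 in K11.

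Against R11, the strain with an arginine at the same position, K11 also had 0 of 5415 genes (0%) past limma's adjusted p of 0.05, with 12 genes at an unadjusted p under 0.05. Past 2-fold there were 4 genes (0.0739%), PTH1, YJR154W, YML054C-A and YML100W-A, all higher in K11 and all with mean signals under 50 in each of the strains. YML054C-A had 15.6 on both K11 arrays and 4.69 and 8.30 on the R11 arrays.

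Several of the leading genes of K11 had similar values in R11, which was compared with the same WT arrays. IRC18 had 71.0 and 65.8 in R11, within the range of its K11 arrays (50.5 to 78.2), and K11 minus R11 was -0.12. SUS1 had 215 and 116 in R11, on either side of its K11 arrays, and HXT10 had 18.9 and 20.2. FYV12 had 152 and 165 in R11 against 204 and 210 in K11, PRP11 had 744 and 693 against 902 and 1053, and VID30 had 91.3 and 84.1 against 141 and 143. K11 lay above R11 without overlap at these 3 genes, by 0.39, 0.44 and 0.70 on the log2 scale (standard errors 0.18, 0.16 and 0.34, limma adjusted p 1.0 for each). These 3 genes were named because their K11 signals were high against WT, so their place above R11 partly repeats that choice. The share of all genes that separate K11 from R11 in this way was not counted.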

How the data were processed

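The values were deposited by the authors as MAS5 signal intensities on a linear scale, 1 value per probe set and array, after background correction and scaling per array. The MAS5 version is not given in the sources used here, and no detection calls were used. Probe sets were named through the platform annotation, which gave 5498 probe sets a S. cerevisiae gene and left 3470 without a gene, and 12 symbols were updated through RefSeq. For genes with several probe sets (47) the brightest was used. No coordinates are given because the table names no genome build.

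Signals were log2 transformed. Genes with a mean log2 signal above background entered a linear model over all 11 arrays (limma 3.58.1, R 4.3.3), with 1 coefficient per strain (6 residual degrees of freedom) and a trend on the variances, and p-values were adjusted by Benjamini-Hochberg over 5415 genes. All 11 arrays shared the estimate of spread because the groups hold 2 or 3 arrays. On simulated independent arrays for K11 against WT with 5415 genes, 51 of 67 genes changed by 1 log2 unit and 21 of 67 changed by 0.5 were recovered, with 0 false calls. The real arrays were not independent, since deviations of arrays with the same number were correlated at 0.66 to 0.71. The simulation thus checks the fit and does not give its power or error rate on these arrays. Arrays are counted as biological replicates as described by the submitters, and their number limits the precision.

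The members, the gene lists and the tests were chosen with earlier results of these data known. Genes were named if they passed the test or 2-fold or, with all 5 arrays above background, were among the 10 highest or 10 lowest without overlap or the 5 highest or 5 lowest within both replicate numbers by the smaller difference. Histone, mating type and marker genes were named too, as were up to 3 members of each list described with the largest change in the direction of its median. Genes named outside this rule are marked as chosen afterwards or belong to a count given beside them.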

Additional observations from a re-analysis of the deposited data

How the results depend on the processing

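The count of genes past limma's adjusted p was 0 in the main fit and under each of the 18 alternatives, in which the unadjusted count ranged from 16 (K11 and WT arrays only) to 631. The count past 2-fold (4) was 0 with 50 added before the log2, 0 among genes with a mean signal of at least 50 and 16 with no filter on dim genes. It was 7 with a term for the spike-in sets and 7 to 15 with single arrays left out. The count past 1.5-fold (23) was 2, 3 and 42 under the first 3 of these settings, and 26 to 91 with single arrays left out. The count without overlap (475) was 1082 to 2042 with single arrays left out, where fewer arrays must be separated. The median over all genes was -0.03 to 0.01 under all alternatives, and 44.5% of genes were higher in K11 in the main fit against 53.1% without WT replicate 3. The spike-in term and both replicate blocks gave the same median and the same counts past 2-fold and 1.5-fold as leaving out WT replicate 3. For the fold changes these alternatives are thus not separate checks. Of 1502 values of named genes, 1461 moved by less than the spread between replicates. For genes without overlap, 0 values changed sign. With single arrays left out, 50 added or a replicate block, this was fixed beforehand. Both K11 arrays of such genes lay beyond all WT arrays, so that it is no check of them.

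K11 and WT share only 2 replicate numbers, and nothing in the labels says what a number stands for, so that the numbers do not pair the arrays by design. The deviations of replicates 1 and 2 were correlated across genes at 0.66 to 0.71 among WT, K11 and R11. With the replicate block over all arrays, 0 genes passed, 7 were past 2-fold and 71 had an unadjusted p under 0.05. With the replicate block over the WT, R11 and K11 arrays of numbers 1 and 2, 0 genes passed, 7 were past 2-fold, 631 had an unadjusted p under 0.05 and the smallest adjusted p was 0.129, with 2 residual degrees of freedom. The median standard error fell to 0.07 from 0.16 in the main fit. What the arrays of a number share was not tested.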

Other observations

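Among 1719 bright genes (a mean signal of at least 1000, a limit chosen after the values were seen), the 5 highest and 5 lowest by the smaller difference within replicate numbers 1 and 2 were CAR2, PST1, YBL100W-B, TIR4 and TMC1, and ENA5, ARG1, YBR137W, GCV3 and RPS10A. CAR2 encodes ornithine aminotransferase, a step of arginine breakdown. It had 1489, 1542 and 1937 in WT and 2027 and 1985 in K11, with no overlap, and K11 minus WT was 0.44 within number 1 and 0.36 within number 2. ARG1 encodes argininosuccinate synthetase, a step of arginine synthesis, and had 1894, 2388 and 1607 in WT and 1520 and 1816 in K11, with -0.32 and -0.39. WT replicate 3 lay within the range of K11 at ARG1.

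CAR1, which encodes arginase and acts before CAR2, and the arginine synthesis gene ARG4 were chosen for comparison after these values were seen. CAR1 had differences of -0.01 and 0.00, and ARG4 had 0.24 and -0.04. ENA5, a sodium pump gene read by a shared probe set, had 1829, 2332 and 2047 in WT and 1355 and 1834 in K11, with -0.43 and -0.35. In R11 ENA5 had 1407 and 1791, CAR2 had 1904 and 1827 and ARG1 had 1968 and 2439. R11 thus lay near K11 at ENA5 and CAR2 and near WT at ARG1. The limma adjusted p between K11 and WT was 1.0 for each of them in the main fit. In the limma fit with the replicate block over the WT, R11 and K11 arrays, they had the smallest adjusted p, 0.129 each. That fit averages the same differences within replicate numbers by which these genes were picked, so their rank in it is no separate check.

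Outside the S. cerevisiae genes, 5217 probe sets were present, and 337 of them lay above background on all 5 arrays. Of these, 14 were higher and 21 lower in K11 without overlap, and 0 reached 2-fold in either direction.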
